A study of Mus musculus with 16 samples.

Results

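TRBV3 receptors are T cell receptors whose beta chain was built with the variable segment TRBV3. They were chosen by the V label of the beta chain, in cells with exactly 1 productive TRB and 1 or 2 productive TRA chains. That rule selected 3816 of 38108 such cells, and 3183 of 30489 clonotypes, where a clonotype is the cells of 1 library that share the TRB chain and the main TRA chain. The files listed 74368 cells with any receptor chain.

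The cells were CD44high CD4+ T cells, an antigen-experienced fraction, sorted from the spleens of myeloma-bearing mice, and their receptors were read by single-cell V(D)J sequencing. There were 4 groups with 2 libraries each, 1 library from each of 2 experiments: anti-4-1BB in Eomes KO mice, IgG in Eomes KO mice, anti-4-1BB in WT mice and IgG in WT mice. The KO mice of experiment 2 were Eomesfl/fl-ERT2CD4Cre animals given tamoxifen, and those of experiment 1 were Eomesfl/fl-CD4Cre animals, in which the Cre acts from the CD4-expressing stage of T cell development onwards. Both delete Eomes, a transcription factor of T and NK cells. The WT mice were Eomes-IRES-GFP reporter animals in both experiments, and those of experiment 2 also had tamoxifen. How Eomes was deleted therefore cannot be told apart from the experiment. KO and WT mice were also of different lines, so line and Eomes deletion cannot be told apart between genotypes. All mice had the NK1.1-depleting antibody (50 µg, days -2 and 5) and a graft of the Vk12653 myeloma, a transplantable line of the Vk*Myc model, on day 0. The agonist antibody to 4-1BB, a costimulatory receptor of activated T cells, or control IgG was given at 20 µg on days 10, 13 and 16, and cells were sorted on day 18. The sources used here do not give how many mice went into each library, so the p-values measure only the spread between libraries. The chain files cannot show the sorted cell type beyond the productive alpha beta receptors, which every kept cell carried by the rule.

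A beta chain is assembled in the thymus from 1 V, 1 D and 1 J segment, with bases trimmed from and added to the joined ends. The V segment encodes the CDR1 and CDR2 loops, which mostly touch the MHC molecule, while the CDR3 loop spans the joint and mostly touches the peptide. A beta chain is then paired with an alpha chain joined from TRAV and TRAJ segments, and a clone is the progeny of 1 such cell.

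Trbv3 lies on chromosome 6 at 41048394 to 41048824 in the RefSeq annotation of GRCm38.p6, as a V segment between Trbv2 and Trbv4, with the older name Tcrb-V16. The CDR1 and CDR2 read in the contigs are shown because they identify the segment, and the V end of CDR3, a consensus of the clonotypes, because it is what the segment gives to the loop:
CDR1: tctaatcacctatat
CDR2: ttctacaatggtaaagtc
CDR3 V end: tgtgccagcagcttag
The CDR1 and CDR2 stood unaltered in 6526 of 6528 TRBV3 contigs, and that CDR1 was found in 0 contigs of any other TRBV label. All 16 bases of the V end were kept in 836 of the 3183 clonotypes.

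The libraries held 2656 to 8871 kept cells and 80551 to 445027 chain UMIs, which are counts of tagged molecules. In experiment 1, TRBV3 was the most used TRBV label among the clonotypes of WT mice given anti-4-1BB. It was second of 22 labels in the other 7 libraries. The label that combines TRBV12-2 and TRBV13-2 in the files averaged 12.8% of clonotypes, against 10.3% ± 1.43 for TRBV3 (SD, n = 8 libraries). TRBV31, the next label, averaged 7.77%.

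TRBV3 made up a larger share of clonotypes under anti-4-1BB than under IgG in 3 of the 4 pairs of libraries. In KO mice the share was 11.7% with anti-4-1BB against 8.54% with IgG in experiment 1, and 8.96% against 9.47% in experiment 2. In WT mice it was 12.1% with anti-4-1BB against 9.90% with IgG in experiment 1, and 11.9% against 9.41% in experiment 2. Experiment 2's KO library with anti-4-1BB was thus the only treated library inside the range of the IgG libraries. Its exact 95% binomial interval, which covers counting error only, was 8.04% to 9.95%, while that of its WT counterpart was 10.8% to 13.2%.

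**Figure D1:**
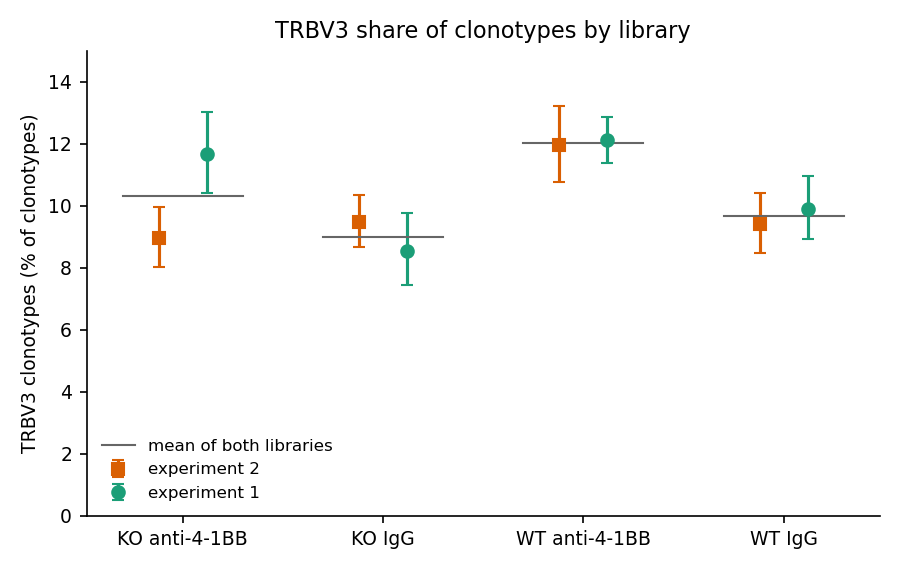
TRBV3 share of clonotypes in percent (vertical axis) in the 8 libraries by group, with exact 95% binomial intervals; squares are experiment 2, circles experiment 1 and lines the mean of both libraries. Of the anti-4-1BB libraries, 3 lie at 11.7% to 12.1% and the KO library of experiment 2 at 8.96%, beside 8.54% to 9.90% with IgG.

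Averaged over both genotypes, TRBV3 was 11.2% ± 1.49 of clonotypes with anti-4-1BB and 9.33% ± 0.570 with IgG (SD, n = 4 libraries each). In the fit of all segments this was a log2 difference of 0.26 ± 0.13 (SE), with an adjusted p of 0.957 by edgeR's quasi-likelihood test with Benjamini-Hochberg adjustment, so it did not pass. This comparison called 1 of 153 segments, 0.654%, and it was not TRBV3. The choice of TRBV3 was made with this treatment value known, so it is a description here. To compare treatments within experiments, the KO and WT libraries of an experiment were fitted as replicates, so genotype differences count as spread. The KO and WT pairs of experiment 2 went opposite ways, as given above. The log2 difference was 0.14 ± 0.17 in experiment 2 and 0.37 ± 0.17 in experiment 1. The difference between those 2 effects was -0.22 ± 0.24 and did not pass (edgeR adjusted p = 0.668).

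The genotypes were closer together. TRBV3 was 9.66% ± 1.39 of clonotypes in KO libraries and 10.8% ± 1.39 in WT libraries (SD, n = 4 each), a log2 difference of -0.16 ± 0.13 that did not pass (edgeR adjusted p = 0.993). Without experiment 2's KO library given anti-4-1BB, the log2 differences were 0.34 between treatments (edgeR adjusted p = 0.497) and -0.07 between genotypes, and without its counterpart of experiment 1 they were 0.15 and -0.26. Under anti-4-1BB the log2 difference between KO and WT was -0.22 ± 0.18, and under IgG it was -0.10 ± 0.18. The treatment effect in KO minus that in WT was -0.12 ± 0.25 on the log2 scale (edgeR adjusted p = 0.970). By experiment, the mean was 9.95% ± 1.35 in experiment 2 and 10.6% ± 1.65 in experiment 1 (SD, n = 4 each), a log2 difference of -0.08 ± 0.13 (edgeR adjusted p = 0.846). Leaving out either KO anti-4-1BB library turned that last value to 0.02. The comparison of genotypes and that of experiments each called 1 of 153 segments, again 0.654%, and neither was TRBV3.

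Counted as cells, the TRBV3 share was between 8.44% and 11.9% of kept cells. Of the cells just outside the rule, those with 1 TRB and no TRA carried TRBV3 in 5.54% to 9.91% of cases, and the chains of cells with 2 TRB were TRBV3 in 5.23% to 9.80%. The share among TRB-only cells was below that among kept cells in 7 of the 8 libraries. The exception was the KO IgG library of experiment 2, with 9.91% of TRB-only cells and 9.20% of kept cells.

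Of the other TRBV labels with at least 10 clonotypes in every library, the one whose log2 share followed TRBV3 most closely over the 8 libraries was TRBV12-1 (Pearson r = 0.70). TRBV12-2 followed with r = 0.60 and TRBV15 with r = 0.36, and TRBV1 had the lowest value, r = -0.72. Shares within a library sum to a whole, so a rise of one label lowers the others. These are descriptions over 8 libraries.

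The J segment that completed the beta chain differed between TRBV3 and other clonotypes. TRBJ1-2 was more often joined to TRBV3 and TRBJ1-6 less often, in all 8 libraries for both. These 2 were among 10 of 121 TRBJ, TRAV and TRAJ segments called at an adjusted p under 0.05, or 8.26%. Of the 121 segments, 2 had a higher share with TRBV3 in 8 of 8 libraries, 1.65%, and 6 a lower one, 4.96%. The annotated segments differ in length, with 48 bases for TRBJ1-2 and 53 for TRBJ1-6. Their starts in CDR3 are shown as a consensus of the clonotypes. That consensus may run past a segment's own first base, so some leading bases here and in the chains below may belong to the joint:
TRBJ1-2 start in CDR3: gcaaactccgactacaccttc
TRBJ1-6 start in CDR3: ttcctataattcgcccctctacttt

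TRBJ1-2 lies at 41534001 to 41534048 of chromosome 6. It made up 8.33% ± 1.62 of TRBV3 clonotypes and 4.73% ± 0.568 of other clonotypes (SD, n = 8 libraries). In the anti-4-1BB libraries of KO mice it was 6.94% of TRBV3 clonotypes against 5.09% of others in experiment 2, and 8.60% against 4.12% in experiment 1. In those of WT mice it was 7.14% of TRBV3 clonotypes against 3.92% of others in experiment 2, and 9.14% against 4.22% in experiment 1. In the IgG libraries it was 7.30% of TRBV3 clonotypes against 5.05% of others in KO mice of experiment 2, and 11.7% against 5.36% in experiment 1.
In the IgG libraries of WT mice the shares were 6.98% of TRBV3 clonotypes against 5.31% of others in experiment 2, and 8.85% against 4.76% in experiment 1. The lowest TRBV3 value, 6.94%, thus stood above the highest value of other clonotypes, 5.36%. The log2 difference was 0.82 ± 0.13 (edgeR adjusted p = 1.55e-06). Of the 22 TRBV labels with 100 or more clonotypes, TRBV3 had the highest TRBJ1-2 share, 8.29% over all libraries, followed by TRBV30 with 7.52%, and the median label had 4.48%.

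TRBJ1-6 lies at 41535554 to 41535606 of chromosome 6 and sits between the other TRBJ1 segments and the constant gene Trbc1. It made up 0.804% ± 0.577 of TRBV3 clonotypes and 2.67% ± 0.278 of other clonotypes (SD, n = 8 libraries). Only 25 TRBV3 clonotypes used it. The highest TRBV3 share, 1.55% in the KO IgG library of experiment 2, was below the lowest share of other clonotypes, 2.27%. The log2 difference was -1.77 ± 0.28 (edgeR adjusted p = 1.21e-06). Lower shares than that of TRBV3 were found for TRBV30, with 0 TRBJ1-6 clonotypes, and TRBV15, with 0.352%, while the median label had 2.39%.

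The other 10 TRBJ segments did not pass. TRBJ1-5, the next by p, was 1.82% ± 1.10 of TRBV3 clonotypes and 2.40% ± 0.518 of others (SD, n = 8; edgeR adjusted p = 0.324). The cluster of TRBJ2 segments together took 68.8% ± 1.60 of TRBV3 clonotypes and 69.5% ± 1.59 of others, higher with TRBV3 in 3 libraries and lower in 5. Chains with a TRBJ2 segment carried TRBC2 in 2531 cells and TRBC1 in 0, and chains with a TRBJ1 segment carried TRBC1 in 1147 cells and TRBC2 in 0.

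**Figure D2:**
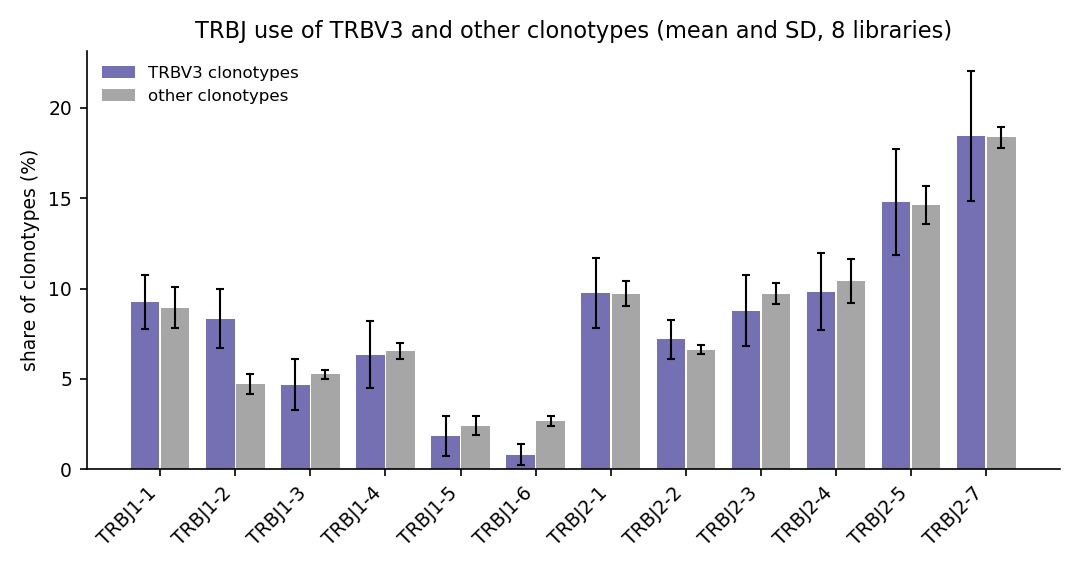
Share of clonotypes with each TRBJ segment in percent (vertical axis), for TRBV3 and other clonotypes; bars are means over 8 libraries and error bars SD. TRBJ1-2 stands at 8.33% against 4.73%, and TRBJ1-6 at 0.804% against 2.67%; the other 10 pairs did not pass the test.

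Chains of cells with a TRB and no TRA, each counted once and kept only where absent from the paired cells of the library, gave a second reading of J use. This comparison was added after seeing the data and rests on 92 to 279 TRBV3 chains per library. TRBJ1-6 was 0.858% ± 0.553 of TRBV3 chains and 2.73% ± 0.509 of others (SD, n = 8), lower in 8 of 8 libraries, with a log2 difference of -1.68 ± 0.35. It was the 1 of 12 TRBJ segments called, 8.33% (edgeR adjusted p = 0.000472, over the TRBJ segments of that fit). TRBJ1-2 was 6.07% ± 1.73 of TRBV3 chains and 5.09% ± 0.238 of others, higher in 6 of 8 libraries, and did not pass (log2 0.29 ± 0.16, edgeR adjusted p = 0.183).

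The alpha partners of TRBV3 were spread over the whole locus. The kept cells held 3088 TRA chains with TRBV3, and 8 TRAV and TRAJ segments differed from their share in other clonotypes. Of the TRAV segments tested, 2 of 66 were called, both lower with TRBV3. TRAV11, which builds the invariant alpha chain of NKT cells with TRAJ18, was 0.232% ± 0.169 of TRBV3 clonotypes and 0.971% ± 0.786 of others (SD, n = 8; log2 -1.99 ± 0.47, edgeR adjusted p = 0.00121). It was lower in 8 of 8 libraries. Only 7 TRBV3 clonotypes carried a TRAV11-family alpha, and leaving out experiment 2's KO IgG library, where 2.41% of other clonotypes used it, gave an adjusted p of 0.0562 in edgeR. DESeq2 did not call it either (adjusted p = 0.0695).

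The invariant NKT alpha chain itself, TRAV11 or TRAV11D with TRAJ18, was carried by 5 of 3816 TRBV3 cells and 219 of 34292 other cells. This was 0.131% of TRBV3 cells (exact 95% interval 0.0426% to 0.306%) and 0.639% of other cells. The alpha chain of mucosal-associated invariant T cells, TRAV1 with TRAJ33, was found in 0 of 3816 TRBV3 cells, which allows a share of up to 0.0786%, and in 4 other cells.

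TRAV13N-2 was 2.09% ± 0.539 of TRBV3 clonotypes and 3.36% ± 0.588 of others (SD, n = 8), lower in 8 of 8 libraries (log2 -0.71 ± 0.21, edgeR adjusted p = 0.0127). Leaving out the larger WT anti-4-1BB library, from experiment 1, its edgeR adjusted p was 0.0512. TRAV13N-2 has near-identical copies in the repeated part of the alpha locus, and the contig labels may divide them. TRAV13-1 had a log2 difference of -0.46 ± 0.18 and did not pass (edgeR adjusted p = 0.111), but with TMM factors it was called (edgeR adjusted p = 0.0450). Of the 6 TRAV13 segments tested, 1 was called lower and 0 had a higher fitted share with TRBV3, and their median log2 difference was -0.21. All 7 TRAV14 segments had a higher fitted share, with a median of 0.12 and 0 calls. Over all 121 segments, 63 had a higher fitted share and the median was 0.02.

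Among TRAJ segments, 3 of 43 were called higher with TRBV3 and 3 lower. TRAJ28 was 1.28% ± 0.581 of TRBV3 clonotypes and 0.562% ± 0.122 of others (SD, n = 8), higher in 7 of 8 libraries (log2 0.96 ± 0.30, edgeR adjusted p = 0.0159). TRAJ48 was 2.29% ± 0.852 of TRBV3 clonotypes and 1.52% ± 0.114 of others, higher in 6 libraries (log2 0.66 ± 0.20). TRAJ56 was 2.96% ± 0.810 of TRBV3 clonotypes and 2.004% ± 0.241 of others, higher in 7 libraries (log2 0.59 ± 0.18).
On the lower side, TRAJ30 was 2.61% ± 0.792 of TRBV3 clonotypes and 3.93% ± 0.901 of others, lower in all 8 libraries (log2 -0.61 ± 0.17, edgeR adjusted p = 0.00737). TRAJ12 was 2.15% ± 1.05 against 3.41% ± 0.664 and lower in 7 libraries, and TRAJ39 was 2.08% ± 0.722 against 3.03% ± 0.478 and also lower in 7. The 3 called higher and the 3 called lower all overlapped between TRBV3 and other clonotypes when libraries were not compared in pairs. So did TRAV11 and TRAV13N-2.

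The calls of TRBJ1-2, TRBJ1-6 and TRAJ30 held whichever library was left out and under the 7 other settings tried on the paired cells. That of TRAJ12 also held whichever library was left out, but it was lost without the library as a block (edgeR adjusted p = 0.0557) and when cells were counted. TRAJ39 lost its call when the WT anti-4-1BB library from experiment 1 was left out (edgeR adjusted p = 0.268), and under DESeq2 (adjusted p = 0.0695). TRAJ56 lost it without either WT anti-4-1BB library. TRAJ48 lost it without the WT anti-4-1BB library from experiment 1 or either KO library from experiment 2. TRAJ28 lost it without any 1 of the KO libraries except the anti-4-1BB one from experiment 2. The highest edgeR adjusted p-values were then 0.155 for TRAJ56, 0.103 for TRAJ48 and 0.152 for TRAJ28. When cells were counted in place of clonotypes, the 3 segments called were TRBJ1-2, TRBJ1-6 and TRAJ30, so 7 fewer than by clonotypes.

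**Figure D3:**
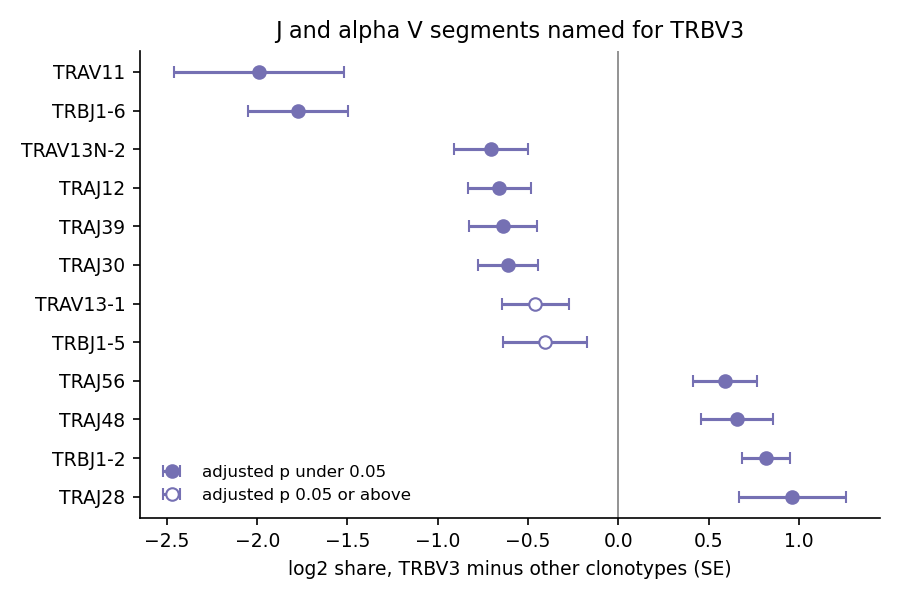
Log2 share among TRBV3 minus that among other clonotypes (horizontal axis), with SE, for the 10 called segments (filled) and the 2 next named ones (open). TRAV11 at -1.99 and TRBJ1-6 at -1.77 lie lowest and TRAJ28 at 0.96 highest.

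TRAJ segments numbered above 30, which lie nearer to the TRAV segments, were used by 56.0% ± 2.88 of TRBV3 clonotypes and 50.7% ± 2.16 of others (SD, n = 8), higher with TRBV3 in 8 of 8 libraries. Of these, 22 were tested, with 2 called higher, 1 called lower and a median log2 difference of 0.18. The 21 tested at 30 or below had 1 called higher, 2 called lower and a median of -0.06. The summed share was not tested.

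Within TRBV3, no partner segment was called between treatments or genotypes. For anti-4-1BB against IgG, 0 of 121 segments passed, 0.0%, with 7 at an unadjusted p under 0.05, and DESeq2 also called 0. TRBJ1-6 had the smallest p. In the anti-4-1BB libraries it was 0% and 0.358% of TRBV3 clonotypes in KO mice of experiments 2 and 1, and 0.298% and 0.653% in WT mice. In the IgG libraries it was 1.55% and 1.52% in KO mice and 1.16% and 0.885% in WT mice of the same experiments. The 2 treatments did not overlap in TRBJ1-6, nor in TRBJ2-3, and these were 2 of 121 segments, 1.65%, lower under anti-4-1BB without overlap, while 0 were higher, 0.0%. The counts of TRBJ1-6 were small, and the log2 difference of -1.92 ± 0.68 did not pass (edgeR adjusted p = 0.791).

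TRBJ2-3 was 5.38% to 9.36% of TRBV3 clonotypes with anti-4-1BB and 9.59% to 11.5% with IgG, over 4 libraries each. TRBJ2-3, at -0.48 ± 0.23, and TRBJ1-5, at 1.13 ± 0.48, came next among the J segments, and TRAV17, at -2.38 ± 1.16, and TRAJ38, at -1.24 ± 0.71, among the alpha segments with lower values. On the higher side were TRAV6D-4 (2.66 ± 1.20), TRAV8N-2 (1.73 ± 0.83) and TRAV6-4 (1.78 ± 0.89). These 7 log2 differences did not pass either, with edgeR adjusted p-values of 0.791 or 0.811, and the alpha segments rest on 14 to 24 clonotypes each. TRBJ1-5 was at 0.35 without experiment 2's KO library given anti-4-1BB, and TRAJ38 ranged from -3.03 to -0.62 when 1 library was left out.

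For KO against WT, 0 of 121 passed, 0.0%, with 4 at an unadjusted p under 0.05, and DESeq2 again called 0. TRAJ16 had the smallest p. It was 0.946% and 0% of TRBV3 clonotypes in the KO anti-4-1BB libraries of experiments 2 and 1, against 1.49% and 1.31% in the WT ones. Under IgG it was 0.664% and 0.508% in KO mice against 2.03% and 1.77% in WT mice, so the genotypes did not overlap. TRAJ16 and TRAV14N-1 were the 2 of 121 segments, 1.65%, that were lower in KO without overlap, and TRAJ28 the 1, 0.826%, that was higher. For TRAJ16 the log2 difference was -1.48 ± 0.60 (edgeR adjusted p = 0.914).
The others on the lower side were TRBJ1-5 (-1.15 ± 0.47), TRAV14N-1 (-0.89 ± 0.48) and TRAV16D-DV11 (-1.50 ± 0.83). On the higher side were TRAJ28 (1.17 ± 0.53), TRAJ53 (0.92 ± 0.45), TRAV14-2 (0.88 ± 0.45) and TRAV6-5 (1.06 ± 0.55). Each of these 7 also had an edgeR adjusted p of 0.914. Of the 16 log2 differences named within TRBV3 for treatment and genotype, 12 moved by over 1.5 times when some single library was left out.

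The CDR3 beta of TRBV3 was most often 14 amino acids long. That length was found in 37.6% ± 3.99 of TRBV3 clonotypes and 31.1% ± 1.33 of others (SD, n = 8), higher in 8 of 8 libraries. Lengths of 13 and 15 were lower with TRBV3 in 6 and 7 libraries, at 21.6% ± 2.12 against 23.5% ± 0.540 and 18.0% ± 1.56 against 19.9% ± 1.09. The spectrum ran from 10 to 19 amino acids. The mean length was nearly the same, 13.7 ± 0.0902 for TRBV3 and 13.8 ± 0.0472 for others, with a mean difference of -0.05 (exact sign-flip test over 8 libraries, two-sided p = 0.164, adjusted over 8 features 0.312).

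**Figure D4:**
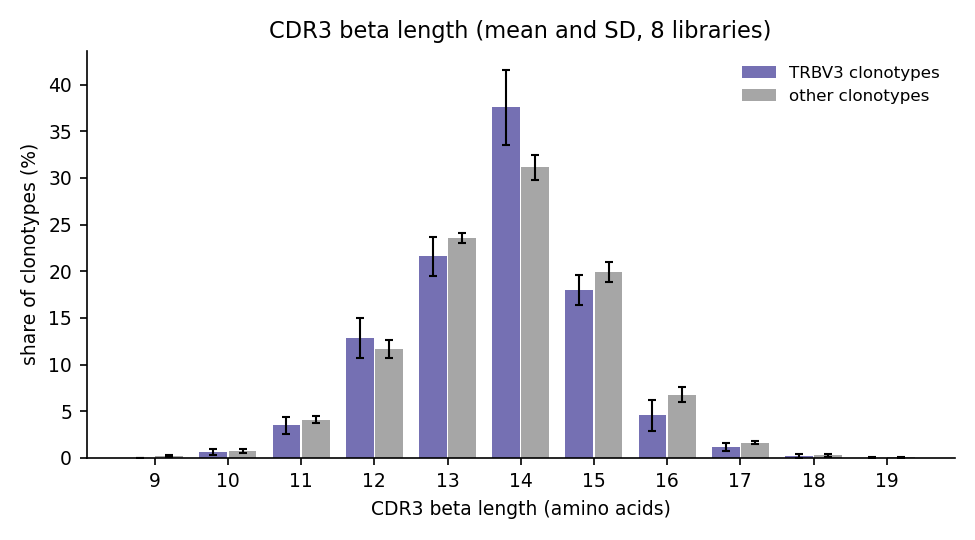
Share of clonotypes by CDR3 beta length in amino acids (horizontal axis), for TRBV3 and other clonotypes; bars are means over 8 libraries and error bars SD. Length 14 holds 37.6% of TRBV3 clonotypes against 31.1% of others.

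The V end of CDR3 kept on average 13.7 of its 16 bases. A match that ended after 12 bases was the most frequent, in 26.8% of clonotypes, followed by a match of all 16 in 26.3%. The 16 bases are a consensus that may stop short of the segment's own end, so a full match need not mean that no base was lost. Counting from the first cysteine, position 4 was serine in 94.95% ± 0.797 of TRBV3 clonotypes and 69.5% of others, and position 5 was leucine in 48.8% ± 2.59 and 17.7%. Both residues are written in the V end shown above, so they follow from the choice of the segment. Serine, in 11.8% ± 1.301, and proline, in 11.5% ± 1.62, came next at position 5.

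Between the V and J ends, TRBV3 clonotypes held 9.21 ± 0.199 bases and other clonotypes 9.39 ± 0.127 (SD, n = 8), a mean difference of -0.18 that did not pass (exact sign-flip p = 0.133). No base outside the V and J ends was found in 41 TRBV3 clonotypes, 1.29%, against 0.894% of others. The net charge of CDR3 was -0.70 ± 0.0583 with TRBV3 and -0.74 ± 0.0568 with others, and TRBD2 was the D label in 35.5% ± 9.33 and 35.5% ± 2.04 of chains with a D label, which were 16.2% of TRBV3 clonotypes. A second TRA was read in 5.25% ± 1.48 of TRBV3 cells and 5.84% ± 1.67 of other cells. The median TRB UMI count per cell was 14.1 ± 2.59 with TRBV3 and 13.8 ± 2.71 with others. Of the 8 features compared, 0 passed (adjusted exact sign-flip p from 0.312 to 1) and 0 were at an unadjusted p under 0.05.

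Within TRBV3, CDR3 beta was shorter under anti-4-1BB than under IgG in 4 of 4 pairs of libraries, with means of 13.66 ± 0.0860 and 13.77 ± 0.0642 amino acids (SD, n = 4). It was longer in KO than in WT in 4 of 4 pairs, with means of 13.77 ± 0.0514 and 13.65 ± 0.0808. Both differences, -0.11 and 0.12, reached the smallest p that the exact permutation of 4 pairs allows, 0.13. Adjusted over the 8 features, that p was 0.5 for each. Of the 8 features, only length and the median TRB UMI count moved one way in 4 of 4 pairs by treatment. By genotype only length and the share with a second TRA did so. In other clonotypes, length was also lower under anti-4-1BB in 4 of 4 pairs, by 0.04 to 0.087, while KO exceeded WT in 1 of 4.

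The median TRB UMI count of TRBV3 cells was also higher with anti-4-1BB in 4 of 4 pairs, 16 ± 2 against 12.3 ± 1.5 (SD, n = 4; exact permutation p = 0.13, adjusted 0.5). Other cells moved likewise, by 4 to 6 UMIs in each pair. A second TRA was less frequent in KO than in WT TRBV3 cells in 4 of 4 pairs, 4.76% ± 1.90 against 5.73% ± 0.921 (exact permutation p = 0.13, adjusted 0.5). In other cells under IgG it was more frequent in KO, 6.14% against 5.09% in experiment 1 and 6.10% against 5.14% in experiment 2. In other cells with anti-4-1BB it was less frequent in KO, 6.71% against 9.27% in experiment 1 and 3.98% against 4.31% in experiment 2.

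Most TRBV3 clonotypes were single cells: 2881 of 3183, 90.5%, against 89.8% of other clonotypes. Clonotypes of 2 cells numbered 194, those of 3 or 4 cells 69, those of 5 to 9 cells 25 and those of 10 or more 14. The class of 5 to 9 cells held 0.785% of TRBV3 clonotypes and 1.21% of others, and that of 10 or more 0.440% and 0.388%. These classes depend on how many cells a library had, so libraries were also thinned to 2656 cells.

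After thinning, 20.6% ± 7.31 of TRBV3 cells and 23.4% ± 9.47 of other cells were in clonotypes of 2 or more cells (SD, n = 8; exact sign-flip p = 0.109, adjusted 0.312). TRBV3 was lower in 6 of 8 libraries, the exceptions being both KO libraries of experiment 1. The TRBV3 share was 26.3% with anti-4-1BB against 18.1% with IgG in KO mice of experiment 2, and 33.2% against 19.3% in WT mice. In experiment 1 it was 20.0% with anti-4-1BB against 24.3% with IgG in KO mice, and 9.98% against 13.7% in WT mice. The treatment difference was therefore positive in experiment 2 and negative in experiment 1. Over the 4 pairs its mean was 3.54 percentage points (exact permutation p = 0.5), and that of KO minus WT 3.15 points (exact permutation p = 0.5).

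**Figure D5:**
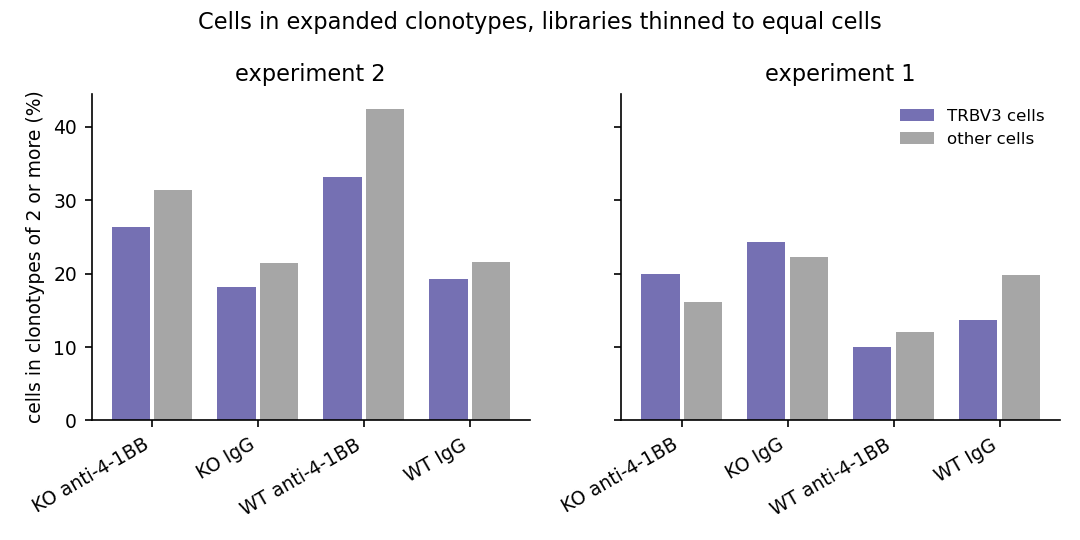
Percent of cells whose clonotype had 2 or more cells (vertical axis), for TRBV3 and other cells, in each library thinned to 2656 cells; the left panel is experiment 2 and the right one experiment 1. TRBV3 is below the other cells in 6 libraries and above them in both KO libraries of experiment 1, at 20.0% and 24.3%.

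The 4 betas of the 5 largest TRBV3 clonotypes are shown, and as the fifth that of the clonotype with the largest share of its library; capitals mark bases that match neither the V nor the J end:
KO anti-4-1BB, experiment 2, TRBJ2-5: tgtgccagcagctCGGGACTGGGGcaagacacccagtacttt
WT anti-4-1BB, experiment 1, TRBJ1-2: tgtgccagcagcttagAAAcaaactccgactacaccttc
KO IgG, experiment 2, TRBJ2-1: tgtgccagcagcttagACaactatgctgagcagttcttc
WT anti-4-1BB, experiment 1, TRBJ1-3: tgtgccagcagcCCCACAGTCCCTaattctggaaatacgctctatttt
KO IgG, experiment 1, TRBJ2-7: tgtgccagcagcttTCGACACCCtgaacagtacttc

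The first of these betas formed 2 of the 10 largest clonotypes, with 16 cells whose main alpha was TRAV21-DV12 joined to TRAJ57 and 14 cells whose main alpha was TRAV4-4-DV10 joined to TRAJ56. It was found in 31 cells of that library and in 0 cells of any other library. The 2 alphas were read together in 1 cell. The second beta was in 20 cells of its library with 5 main alphas, and 15 of these cells had TRAV6-4 joined to TRAJ42. The third had 14 cells with TRAV4-4-DV10 joined to TRAJ47. The fourth had 13 cells with TRAV10 and TRAJ23, and the fifth 11 cells with TRAV21-DV12 and TRAJ58.

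Of the remaining clonotypes among the 10 largest, 2 had 12 cells, in the WT anti-4-1BB libraries, 1 had 11 and 1 had 10, in the WT IgG libraries. All 10 had their beta in a single library. The highest rank that 1 of them reached within its library was 4, for the clonotype of 15 cells, which was 0.169% of the kept cells there. The largest share of a library's kept cells was 0.403%, for the clonotype of 11 cells in the KO IgG library of experiment 1.

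A TRBV3 beta was found with more than 1 main alpha in 135 of 3018 combinations of beta and library, 4.47%. In 28 of these 135, at least 1 cell carried 2 of the alphas at once. A beta with TRBJ1-4 in WT mice given anti-4-1BB, experiment 2, had 8 cells with TRAV7-3 and TRAJ9 as main alpha and 4 with TRAV13N-2 and TRAJ23, and 6 of its 13 cells carried both. Counts of clonotypes by main alpha divide such cells, which bears on the sizes given above.

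Few TRBV3 betas were shared between libraries. Of 2967 nucleotide beta chains, 46 were in 2 or more libraries, 1.55%, against 302 of 25642 other chains, 1.18%, and 4 were in 3 or more. TRBV3 ranked 4 of 18 TRBV labels by this share. The labels ranked 5 to 7 lay very close to it, TRBV26 at 1.55%, the combined TRBV12-2 and TRBV13-2 label at 1.54% and TRBV1 at 1.54%. The most widely found TRBV3 chain was in 4 libraries. The 4 most shared chains were:
TRBJ2-4, 4 libraries: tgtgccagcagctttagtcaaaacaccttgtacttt
TRBJ2-5, 3 libraries: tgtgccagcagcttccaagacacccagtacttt
TRBJ2-7, 3 libraries: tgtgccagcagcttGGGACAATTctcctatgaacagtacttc
TRBJ1-2, 3 libraries: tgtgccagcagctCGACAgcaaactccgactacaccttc

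The first was in all 4 WT libraries, in 1 cell each and with 4 different alphas, and has no base outside the V and J ends. The second also has none and was in 5 cells in both KO IgG libraries and, of experiment 1, the WT anti-4-1BB one. Shared chains had 5.33 ± 3.73 bases between the V and J ends, against 9.37 ± 3.82 in the 2921 chains of 1 library (SD over chains), and TRBJ1-2 in 15.2% against 7.84%. Their mean length was 13.1 ± 1.39 amino acids against 13.7 ± 1.24. Chains are not replicates, so these are descriptions.

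The same beta and alpha pair was found in 2 libraries for 2 of 3181 TRBV3 pairs, each as 1 cell per library. One joined TRBJ1-1 with TRAV6-7-DV9 and TRAJ48, in KO mice given anti-4-1BB (experiment 2) and WT mice given IgG (experiment 1). The other joined TRBJ1-4 with TRAV4-4-DV10 and TRAJ42, in the KO IgG and WT IgG libraries of experiment 2. The cells had no barcode in common. Pairs of libraries shared 35 to 245 cell barcodes, with a median of 111 over 28 pairs, and 0 of those had the same TRB chain.

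At the level of the protein, 135 of 2802 TRBV3 CDR3 sequences were in 2 or more libraries, 4.82%, against 3.62% of others, and 141 were encoded by more than 1 nucleotide chain. The most widely shared was a TRBJ1-3 loop of 14 amino acids found in 6 libraries, in 1 cell each, with 6 different alphas. It was written by these 3 chains, each in 2 libraries:
KO anti-4-1BB and KO IgG, experiment 2: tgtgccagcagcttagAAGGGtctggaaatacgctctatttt
KO anti-4-1BB and KO IgG, experiment 1: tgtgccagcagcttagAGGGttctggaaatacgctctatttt
WT anti-4-1BB and WT IgG, experiment 1: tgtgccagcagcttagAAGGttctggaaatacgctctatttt

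On the alpha side, 78 of 3088 TRA chains paired with 2 or more TRBV3 betas, 2.53%, and 11 with 3 or more. The 2 alphas with the most were each paired with 5 betas:
TRAV4-3, TRAJ53: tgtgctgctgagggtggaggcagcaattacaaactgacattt
TRAV6N-7, TRAJ28: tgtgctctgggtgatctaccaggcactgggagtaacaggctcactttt
The first was in 11 TRBV3 cells of 3 libraries and with 0 betas of other TRBV labels. The second was in 5 TRBV3 cells of 4 libraries and also paired with 5 betas of other labels. The next 3 alphas, TRAV12D-3 with TRAJ33, TRAV4-3 with TRAJ33 and TRAV4-4-DV10 with TRAJ6, each had 3 TRBV3 betas, in 14, 13 and 12 cells.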

How the data were processed

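The deposited contig annotations of 8 V(D)J libraries were used; the paired expression libraries were not analysed here. Per the submitters' processing notes, Cell Ranger 7.1.0, bcl2fastq 2.20.0 and Seurat were used, with GRCm38; which V(D)J reference they used is not given in the sources used here. All 123611 deposited contigs were marked productive and full length by the authors, per the file headers, and the deposited UMI and read columns are raw counts per contig.

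Cells with 1 TRB and 1 or 2 TRA were kept, and clonotypes were counted per V or J segment. Counts were tested with edgeR 4.0.16's quasi-likelihood test (group means, or library as a block for TRBV3 against other), with library size the number of clonotypes and no normalization factors. Treatment effects within experiments used means of experiment and treatment, without genotype. Benjamini-Hochberg adjustment covered all segments tested, and the threshold was 0.05. Segments needed 10 clonotypes in 2 libraries, or, for partners, 10 TRBV3 clonotypes, expected or counted. SE is the log2 difference divided by the root of F. In the fits of partner segments, the spread between libraries was estimated mostly or wholly over all segments of a type. Those p-values thus rest little on a segment's own spread. Features were compared by exact sign-flip permutation over 8 libraries (256 patterns, smallest p 0.00781) or over 4 pairs (16 patterns, smallest p 0.13). Intervals are Clopper-Pearson and, like limits for a count of 0 (3 counts), cover counting error only. Bases of CDR3 were assigned to the V or J end by matching to the consensus end of that segment, read base by base from the clonotypes. A base counted to an end may therefore come from the joint. The fits were tested on simulated data with large differences planted in frequent segments. Detection of smaller differences, or of differences in rare segments, was not covered. Alternatives were DESeq2 1.42.0, TMM, no filter, cells, a minimum of 3 UMIs, other clonotype definitions, no library block, no invariant NKT cells and leaving out each library.

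Named segments were all called ones, the 3 smallest p-values of a segment type with fewer than 3 calls, and within TRBV3 the 4 smallest on each side; named clonotypes, chains and alphas were the most frequent. Members and lists were chosen with earlier results of these data known. The labels mark the experiments as batches, which pairs the libraries of an experiment; deviations from group means correlated with r from -0.13 to 0.40 over 6 pairs of groups (153 segments).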

Additional observations from a re-analysis of the deposited data

Results flagged for a closer look

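In 3 of 36 effects compared between experiments, or between the levels of the other factor, both pairs of libraries moved one way in one experiment and both the other way in the other; these differences were not tested. The share of TRBV3 cells in clonotypes of 2 or more cells, after thinning, differed between anti-4-1BB and IgG by 11.1 percentage points on average in experiment 2 and by -3.98 points in experiment 1. Other cells moved in the same directions, by 10.0 and 20.9 points in the KO and WT pairs of experiment 2 and by -6.22 and -7.75 points in those of experiment 1. The same share differed between KO and WT by -4.01 points in experiment 2 and 10.3 points in experiment 1; it comes from the same 8 values. The share of TRBV3 cells with 2 TRA chains differed between anti-4-1BB and IgG by -1.60 points in experiment 2 and 0.981 points in experiment 1. With 2 libraries per group, no library could be tested for standing apart from its group.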

How the results depend on the processing

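With the experiment as a replicate block, which pairs the libraries of an experiment, the TRBV3 log2 difference was 0.25 for anti-4-1BB against IgG and -0.16 for KO against WT, and the block changed no call for TRBV3 or, between treatments or genotypes, for its partners. Under DESeq2, TMM factors, no filter, cells, a minimum of 3 UMIs and clonotypes by TRB alone, TRBV3 was called in 0 comparisons and kept its direction in each. DESeq2 gave the treatment difference an unadjusted p of 0.0205 (adjusted 0.655). Leaving out 1 library at a time gave 0.15 to 0.34 for anti-4-1BB against IgG and -0.26 to -0.07 for KO against WT, with both ends of each range set by the 2 KO anti-4-1BB libraries, and -0.16 to 0.018 for experiment 2 against experiment 1; TRBV3 was called in 0 of these. Partners of TRBV3 called against other clonotypes numbered 10. When cells were counted they numbered 3, all among the 10. DESeq2 called 8, losing TRAV11 and TRAJ39 (adjusted p = 0.0695 for each), and the fit without the library as a block called 9, losing TRAJ12 (edgeR adjusted p = 0.0557). TMM factors called 12, adding TRAV13-1 and TRAJ18 (edgeR adjusted p = 0.0450 for each). Without the filter, or with a minimum of 3 UMIs, the same 10 were called. Leaving out 1 library gave 7 to 11 calls, of which 6 to 10 were among the 10. TRAV6-5 within TRBV3, KO against WT, ranged from -1.72 to 1.35 when 1 library was left out. It was lowest without experiment 2's KO IgG library. The KO IgG library that then remained, of experiment 1, had TRAV6-5 in 0% of its TRBV3 clonotypes. How far that 0 set the value was not tested. TRAV11 could not be fitted without the invariant NKT cells, since it then fell under the filter. Depth limits the rarest partners: TRBJ1-6 and TRAV11 rest on 25 and 7 TRBV3 clonotypes.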
